A study of Mus musculus with 14 samples.

Results

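The 10 genes described here encode protein parts of the machinery that brings secretory and membrane proteins to the endoplasmic reticulum (ER). They comprise 5 proteins of the signal recognition particle (Srp9, Srp14, Srp19, Srp68 and Srp72), 1 subunit of its receptor (Srprb) and 4 subunits of the Sec61 channel (Sec61a1, Sec61a2, Sec61b and Sec61g). They were taken by gene name from the 16181 genes of the deposited expression table, and their reads were read from the count table of 50686 genes. All 10 were present in both.

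Polyadenylated RNA was sequenced from mouse embryonic stem cells (mESCs) that carry a short hairpin RNA against Dis3l2, an exoribonuclease that degrades uridylated RNAs (shDis3l2), or against LacZ, a bacterial gene that mouse cells lack (shLacZ, the control). The cells were sampled undifferentiated in LIF/2i, a medium that holds them pluripotent (d0). They were also sampled as embryoid bodies (EBs), aggregates formed in hanging drops with serum once LIF/2i had been withdrawn, every 2 days from d2 to d12. Each of the 2 lines gave 1 library on each of the 7 days, 14 libraries in all, so no day has a replicate. For its differentiation experiments the study describes mESCs with stable hairpins and an Osr1-GFP reporter, while the labels of these libraries do not name the line.

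The signal recognition particle is a complex of proteins and one RNA, 7SL. It binds the signal sequence of a protein as it leaves the ribosome, slows translation, and hands the ribosome to a receptor on the ER membrane. The receptor passes it to the Sec61 channel, through which the growing chain enters the ER. 7SL lacks a poly(A) tail and was not analysed here. In these bulk samples, fewer cells of a type and less RNA per cell cannot be told apart.

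The libraries held between 7178712 and 39888099 reads assigned to genes, and the depths of both lines differed by up to 2.88-fold within a day. The targeted gene, Dis3l2, stood at 3.94 CPM (reads scaled to library size) in the library labelled shDis3l2 against 28.7 in shLacZ at d0, a fold of 0.137 (95% interval 0.111 to 0.167). Its fold on the following 6 sampling days was 0.281, 0.321, 0.552, 0.971, 0.95 and 0.754. The interval included 1 at d8 and d10, where a lower Dis3l2 mRNA level was not detectable. CPM values scale the reads of a gene to the total of its library, after 0.25 reads were added in proportion to depth, and folds are ratios of reads over library totals. The intervals of folds are exact (Clopper-Pearson) intervals of the ratio of reads, which cover counting error only. The d0 libraries stood apart: their TMM factors (trimmed mean of M-values, edgeR's correction of library size for composition) were 0.764 and 0.642, against 0.999 to 1.12 in the 12 EB libraries.

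Several members have near-identical copies elsewhere in the mouse genome, and these decide how their reads can be read. Sec61g, the small gamma subunit of the channel (chromosome 11, 16500530 to 16508484, minus strand, GRCm38), has 12 such copies in GENCODE M21, 4 of them with reads. Copies were counted where at least 75 bases of the coding part aligned with at least 90% identity. The processed transcript Gm10177 (chromosome 9, 37252922 to 37253365) is identical to the Sec61g transcript over 420 bases, which include its whole coding part of 207 bases. The coding part of Sec61g and the matching stretches of both copies are shown because a read from any of them may match another equally well. Capitals mark bases that differ from Sec61g.
Sec61g: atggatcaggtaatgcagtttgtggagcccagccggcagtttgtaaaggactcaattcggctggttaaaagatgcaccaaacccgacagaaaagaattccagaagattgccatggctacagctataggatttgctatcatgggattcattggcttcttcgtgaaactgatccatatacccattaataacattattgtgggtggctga
Gm10177: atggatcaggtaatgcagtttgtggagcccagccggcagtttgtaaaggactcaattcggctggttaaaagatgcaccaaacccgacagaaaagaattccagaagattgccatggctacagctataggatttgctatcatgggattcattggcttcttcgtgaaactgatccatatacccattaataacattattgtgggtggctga
Gm16412: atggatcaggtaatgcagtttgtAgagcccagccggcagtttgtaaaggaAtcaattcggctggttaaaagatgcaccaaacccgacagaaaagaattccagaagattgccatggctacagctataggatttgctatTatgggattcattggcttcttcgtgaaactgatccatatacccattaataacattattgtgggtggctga

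Gm10177 holds no capital and the pseudogene Gm16412 holds 3. Over the 14 libraries, 39640 reads were assigned to Gm10177 and 769 to Sec61g, so that the copy took 98.1% of the reads of both. Gm16412 took 379. Which locus the reads came from cannot be read from these counts, and Gm10177 is not among the genes of the deposited expression table.

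Srp9 (chromosome 1, 182124737 to 182132407, plus strand) also has a copy with reads, the processed pseudogene Gm13736 (chromosome 2, 87526145 to 87526397). Gm13736 is identical to bases 2 to 254 of the Srp9 coding part, counted from the first base of its start codon. Whether reads were shared between these entries cannot be read from the counts. Gm13736 took 4472 reads against 11351 for Srp9, 28.3% of both. The shared stretch is printed once, since no base differs.
Srp9 and Gm13736: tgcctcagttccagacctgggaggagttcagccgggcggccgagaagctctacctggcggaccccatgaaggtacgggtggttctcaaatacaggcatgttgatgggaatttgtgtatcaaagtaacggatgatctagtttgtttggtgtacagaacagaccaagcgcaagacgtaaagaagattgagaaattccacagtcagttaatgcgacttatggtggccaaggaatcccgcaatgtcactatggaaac

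Sec61b (chromosome 4, 47474658 to 47483242, plus strand) has 3 copies, 2 of them with reads, and Gm10320 and Gm5870 took 1850 and 1797 reads against its 20528. Srp19 has 1 copy (Gm35405) with 30 reads against 15687, and Srprb (chromosome 9) overlaps the gene model Gm20425, which has none. No such copy was found for Srp14 (chromosome 2), Srp68 (chromosome 11), Srp72 (chromosome 5), Sec61a1 (chromosome 6) and Sec61a2 (chromosome 2).

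Sec61a1 and Sec61a2 encode alternative forms of the alpha subunit, which forms the pore of the channel. Their coding parts are each 1431 bases long and 78.3% identical, and the longest run they share is 26 bases, so most reads can be assigned to one of them. Coding bases 1 to 120 of each follow, with capitals where the paralogs differ, because several results turn on the balance between them.
Sec61a1: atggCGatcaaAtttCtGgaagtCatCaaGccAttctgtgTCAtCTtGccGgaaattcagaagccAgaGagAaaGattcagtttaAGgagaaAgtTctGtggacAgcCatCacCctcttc
Sec61a2: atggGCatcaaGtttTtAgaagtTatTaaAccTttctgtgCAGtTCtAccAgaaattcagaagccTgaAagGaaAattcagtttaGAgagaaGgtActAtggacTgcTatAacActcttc

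Per length, the members lay at different levels, given here as CPM per kilobase of the gene length in the count table, as the median of the 14 libraries. Srp14, which with Srp9 forms the part of the particle that slows translation, was highest at 59.7 (range 41.3 to 77.9). Srp68, Sec61a1 and Sec61b followed at 43.6, 42.0 and 40.8, with overlapping ranges of 23.1 to 47.8, 24.6 to 60.6 and 31.5 to 136.7. These neighbours cannot be ordered by their medians.

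Srp72, the partner of Srp68 on the 7SL RNA, had a level of 32.4. Srp19, which helps the RNA fold for binding of the signal-binding subunit, had 15.7. Sec61a2 had 13.5, Srp9 8.11 and Srprb, which anchors the receptor in the membrane, 7.83. Sec61g was lowest in all 14 libraries, at 1.16 (0.549 to 2.13). The length used matters for this order: with the length of the GENCODE principal transcript, Srp9 stood at 32.9 in place of 8.11 and Srp19 at 65.1 in place of 15.7. The top of the order changed as well: Sec61b, Srp14 and Sec61a1 then had medians of 92.0, 89.4 and 89.2 with overlapping ranges. With that length and with copies of at least 95% identity added, Sec61b stood at 109.7 and Sec61g at 61.0 (46.6 to 168.2) in place of 1.53.

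**Figure D1:**
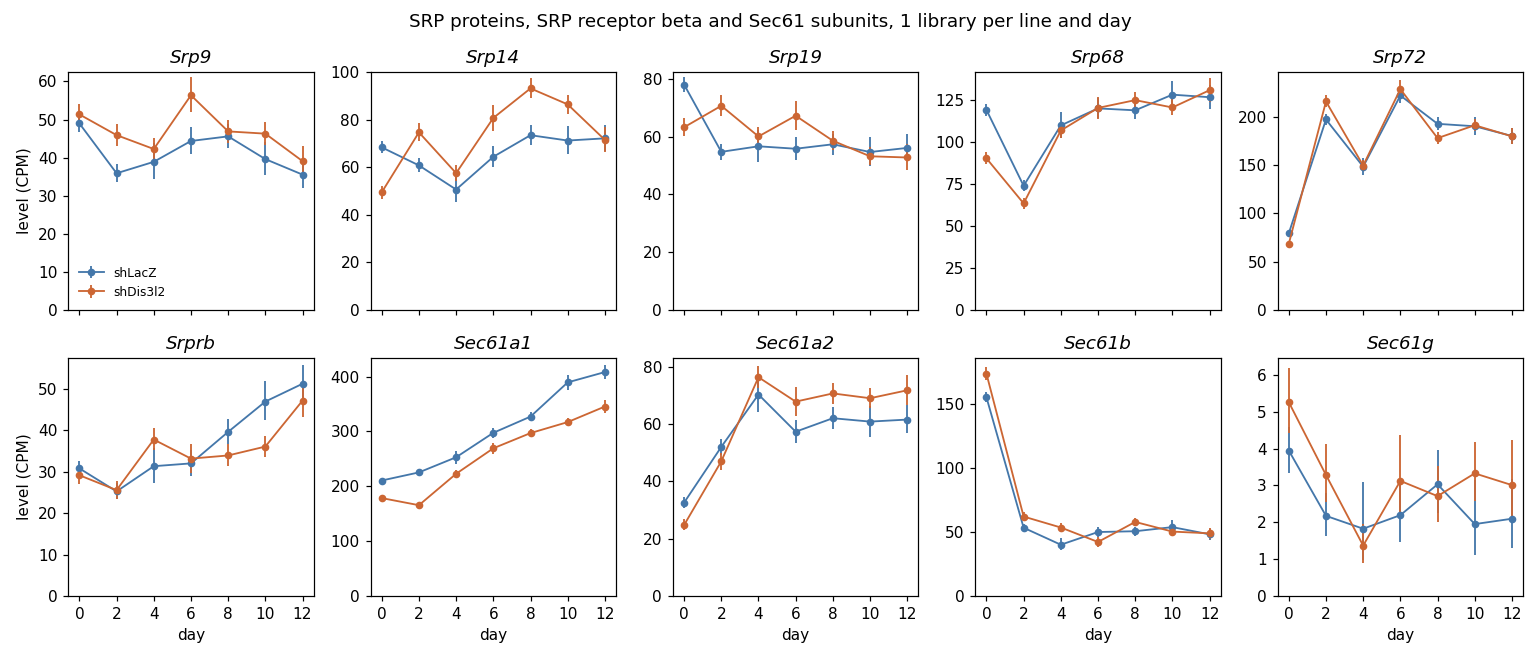
Level of each member in CPM (vertical axis, from 0) by day (horizontal axis) in shLacZ (blue) and shDis3l2 (orange), 1 library per point, with exact 95% intervals of counting error as bars. Scaled by library totals, Sec61a1 is lower in shDis3l2 than in shLacZ on all 7 days (not at d0 by TMM or DESeq2 size factors), Sec61b drops from d0 to d2 in both lines, and Srp72 rises over the same step.

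Sec61a1 climbed from d2 to d12 and was lower in shDis3l2 than in shLacZ on each day by library totals. In shLacZ its level from d0 to d12 was 210, 225, 253, 297, 327, 389 and 408 CPM. In shDis3l2 it was 178, 165, 223, 269, 297, 317 and 345 CPM on the same days. The shDis3l2 value lay below that of shLacZ on every day. By library totals both lines ended at 1.94-fold their d0 level. This rise rested on the scaling of the d0 libraries, since by TMM it was 1.41-fold in shLacZ and 1.11-fold in shDis3l2, and by DESeq2 size factors 1.36-fold and 0.983-fold. The fold of shDis3l2 over shLacZ ran from 0.734 (95% interval 0.704 to 0.766, d2) to 0.908 (0.875 to 0.942, d8), and the interval excluded 1 on all 7 days. Among 10985 protein-coding genes with at least 1 CPM in one library of every day, 11.2% were lower in shDis3l2 on all 7 days. The d0 difference depended on the scaling, at 0.848 by library totals, 1.01 by TMM and 1.11 by DESeq2 size factors, so that by the latter scalings Sec61a1 was lower on 6 of 7 days.

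Sec61a2 went the other way from d4 on. Its levels in shLacZ were 32.6, 52.1, 70.4, 57.4, 62.1, 60.9 and 61.6 CPM from d0 to d12. In shDis3l2 they were 24.8, 47.0, 76.4, 67.9, 70.7, 69.1 and 71.8 CPM. The shDis3l2 library was the lower one at d0 and d2 and the higher one on the later 5 days. By library totals the fold ran from 1.13 (1.02 to 1.26, d10) to 1.18 (1.07 to 1.31, d6) over the last 4 days, and each interval excluded 1. By TMM it was 1.16, 1.06, 1.10 and 1.09 from d6 to d12 and the interval excluded 1 at d6 alone, while by DESeq2 size factors it included 1 at d12 (1.10, 0.991 to 1.23). At d0 the fold was 0.760 by library totals, 0.904 by TMM and 0.995 by DESeq2 size factors. At d4 the interval included 1 (1.09, 0.982 to 1.2).

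The share of Sec61a2 in the reads of both alpha subunits does not depend on how a library is scaled. At d0 it was 13.4% in shLacZ (95% exact binomial interval 12.7 to 14.1) and 12.2% in shDis3l2 (11.3 to 13.1), and these intervals overlapped. At d4, when it was highest in both lines, it was 21.8% (20.1 to 23.5) in shLacZ and 25.5% (24.5 to 26.6) in shDis3l2. At d12 it was 13.1% (12.2 to 14.1) and 17.2% (16.1 to 18.4). From d2 to d12 the share was higher in shDis3l2 on each of 6 days, with intervals that did not overlap on any of the 6. These intervals cover counting error only, and no replicate spread is available for the shares. How often other gene pairs differ in this way was not examined.

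**Figure D2:**
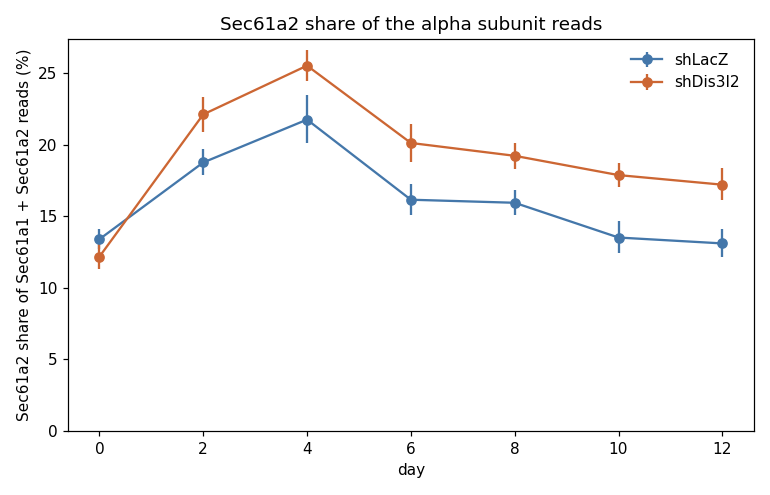
Sec61a2 reads as a percentage of Sec61a1 and Sec61a2 reads (vertical axis, from 0) by day (horizontal axis) in shLacZ (blue) and shDis3l2 (orange), with exact 95% binomial intervals as bars. Both lines peak at d4, and shDis3l2 lies above shLacZ from d2 to d12.

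Sec61b, the beta subunit of the channel, was at 155 CPM in shLacZ and 174 in shDis3l2 at d0. At d2 it was at 53.3 and 62.0 CPM, and from d4 to d12 it stayed between 39.99 and 53.8 in shLacZ and between 42.1 and 57.8 in shDis3l2. Both d0 libraries were thus far above all 12 EB libraries. The lines differed in opposite directions at neighbouring days, with a fold of 1.34 (1.17 to 1.53) at d4 and 0.844 (0.747 to 0.953) at d6.

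Sec61g had few reads, between 13 and 157 per library. Its levels in shLacZ were 3.95, 2.17, 1.82, 2.19, 3.03, 1.95 and 2.10 CPM from d0 to d12. In shDis3l2 they were 5.26, 3.28, 1.37, 3.12, 2.71, 3.33 and 3.01 CPM. At this depth the interval of the fold included 1 on 5 of 7 days, and the exceptions were d0 and d2, at 1.33 (1.05 to 1.69) and 1.51 (1.05 to 2.19).

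Its copy Gm10177 was measured on far more reads and was higher in shDis3l2 on all 7 days. In shLacZ it stood at 253, 107, 84.4, 106, 112, 97.5 and 92.3 CPM from d0 to d12. The levels in shDis3l2 were 303, 152, 94.5, 116, 136, 133 and 104 CPM. The fold ran from 1.10 (1.02 to 1.19) at d6 to 1.41 (1.34 to 1.49) at d2, and each interval excluded 1. By TMM the intervals at d6 (0.995 to 1.16) and d12 (0.968 to 1.15) included 1. With its copies added, Sec61g was higher in shDis3l2 on all 7 days, by 1.11-fold to 1.42-fold. For comparison, 2.5% of the 10985 genes were higher on all 7 days.

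**Figure D3:**
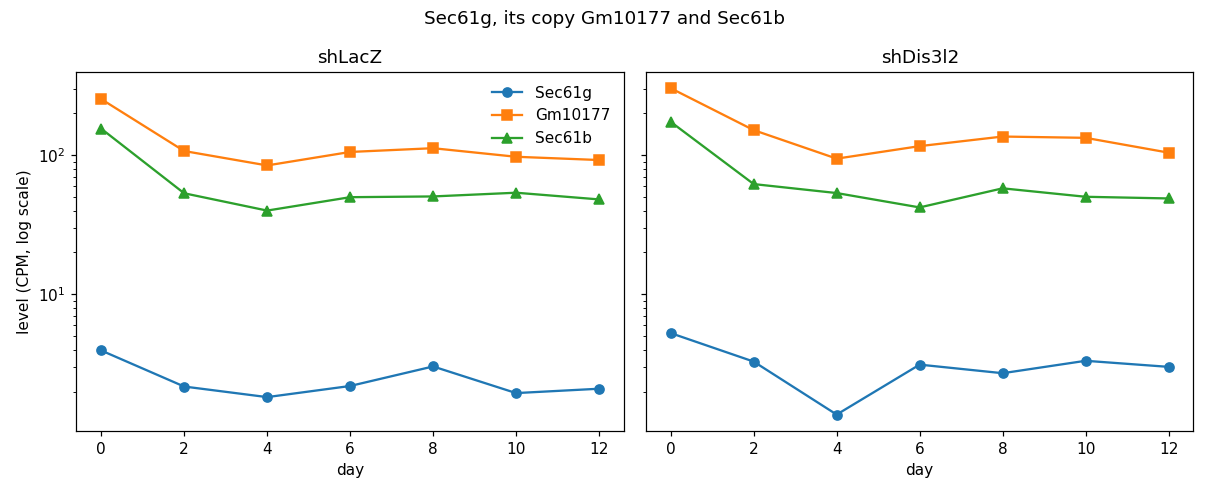
Levels in CPM (vertical axis, log scale) of Sec61g (circles), its identical copy Gm10177 (squares) and Sec61b (triangles) by day (horizontal axis), with shLacZ on the left and shDis3l2 on the right, 1 library per point. Gm10177 lies far above Sec61g in all 14 libraries, and all 3 genes are highest at d0.

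Among the proteins of the particle, Srp9 was higher in shDis3l2 on all 7 days. Its levels in shLacZ were 49.0, 35.9, 38.9, 44.4, 45.6, 39.6 and 35.5 CPM from d0 to d12. In shDis3l2 they were 51.3, 45.9, 42.2, 56.4, 46.9, 46.3 and 39.1 CPM. The higher value was that of shDis3l2 on each day, but the interval of the fold excluded 1 at d2 (1.28, 1.17 to 1.40), d6 (1.27, 1.13 to 1.43) and d10 (1.17, 1.03 to 1.33) and included it on the other 4 days. With TMM scaling Srp9 was higher on 6 of 7 days, with 0.961 at d8 (3.56% of 10940 genes were higher and 8.32% lower on all 7 days by TMM), and with Gm13736 added on 6 of 7 days, with 0.935 at d0.

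Srp14 was at 68.3, 60.7, 50.6, 64.4, 73.4, 71.2 and 72.1 CPM in shLacZ from d0 to d12. In shDis3l2 it was at 49.4, 74.6, 57.5, 80.7, 93.1, 86.4 and 71.5 CPM. By library totals it was lower in shDis3l2 at d0 (0.723, 0.676 to 0.773), higher from d2 to d10 (1.14 to 1.27, each interval excluding 1) and close to equal at d12 (0.991, 0.894 to 1.10). The d0 fold was 0.860 by TMM and 0.947 by DESeq2 size factors, where the interval (0.886 to 1.01) included 1.

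Srp72 and Srp68, which bind the RNA together, moved apart over the first step and differed little between the lines from d4 on. Srp72 was at 79.3 CPM in shLacZ and 68.4 in shDis3l2 at d0, and at 197 and 216 CPM at d2. Srp68 was at 119 and 90.2 CPM at d0, and at 73.8 and 63.3 CPM at d2. By library totals the fold of Srp68 was 0.758 (0.721 to 0.796) at d0 and 0.858 (0.800 to 0.920) at d2. That of Srp72 was 0.863 (0.814 to 0.914) and 1.09 (1.05 to 1.14). At d0 the folds of Srp68 and Srp72 were 0.901 and 1.03 by TMM, and 0.992 and 1.13 by DESeq2 size factors. From d4 to d12 the folds between the lines stayed between 0.923 and 1.03 for Srp72 and between 0.940 and 1.05 for Srp68. Srp68 was the only member whose fold was below 1 on all 7 days by TMM (0.888 to 0.982), while by library totals it was below 1 on 4 days.

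Srp19 ranged from 54.7 to 78.1 CPM in shLacZ and from 52.8 to 70.8 in shDis3l2, with the largest fold at d2 (1.29, 1.2 to 1.39). The ranges of both lines overlapped. Srprb was at 30.8 CPM in shLacZ and 29.2 in shDis3l2 at d0, fell to 25.3 and 25.6 at d2, and reached 51.3 and 47.2 at d12. Its fold was 1.21 (1.04 to 1.40) at d4 and 0.768 (0.679 to 0.871) at d10.

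No member reached a 3-fold difference on any day. Among all protein-coding genes with at least 1 CPM in one of the day's libraries, 2.84%, 0.243%, 2.04%, 6.92%, 9.18%, 11.8% and 9.57% did, from d0 to d12. At 1.5-fold, Sec61g passed at d2 (1.51) and at d10 (1.71, interval 0.984 to 3.16) and no other member on any day. Of all genes, 33.6%, 7.88%, 15.8%, 29.1%, 35.9%, 39.8% and 31.0% passed 1.5-fold from d0 to d12. With copies added, Sec61g did not pass either day. Over the members, the median log2 fold ran from -0.23 at d0 to 0.17 at d2, beside -0.32 and -0.07 over all genes on these days. By TMM the median fold of the members was 1.02 at d0 and 1.17 at d2.

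**Figure D4:**
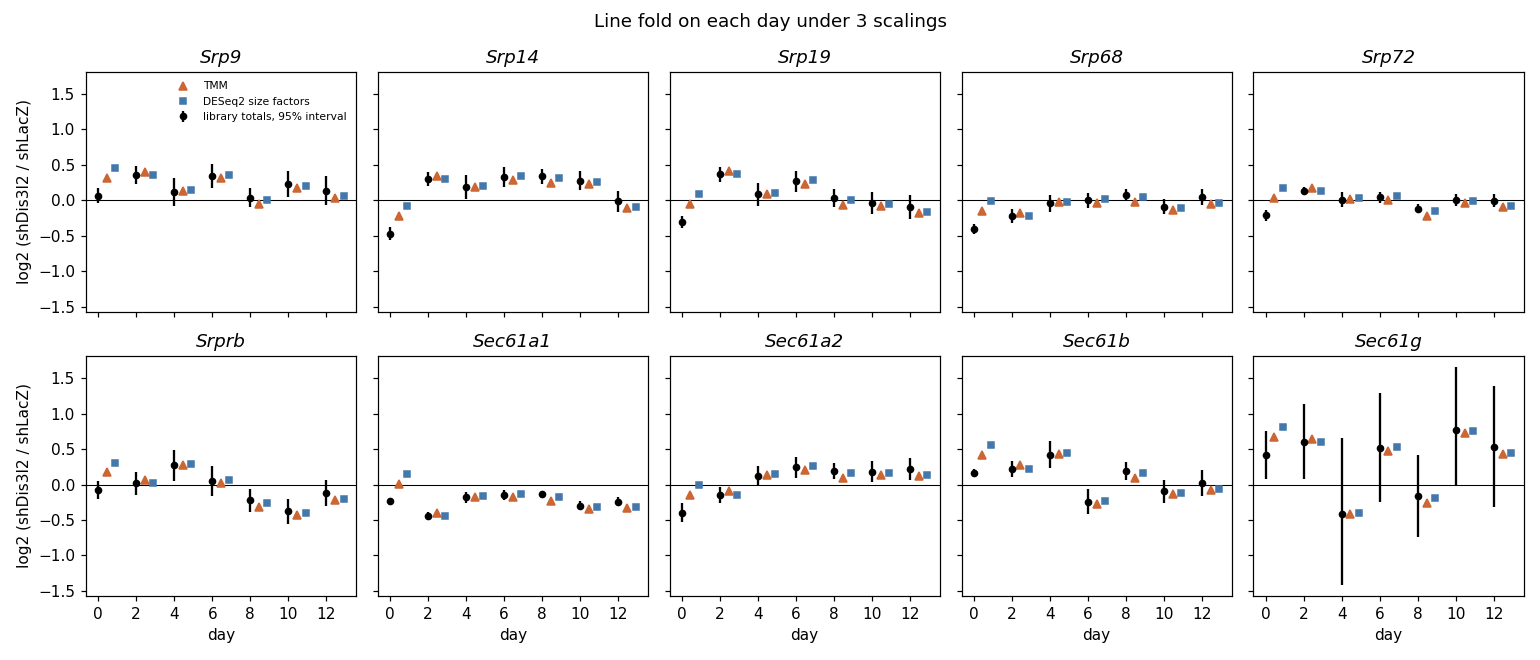
Log2 fold of shDis3l2 over shLacZ (vertical axis) by day (horizontal axis) for each member, with library totals and exact 95% intervals in black, TMM as orange triangles and DESeq2 size factors as blue squares, the latter shifted sideways for legibility. The scalings part most at d0, and the intervals of Sec61g are the widest.

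The question of whether the lines differed over the time course was tested with edgeR's quasi-likelihood test, with day as a block, so that the 7 days stand in for replicates, and with p-values adjusted by the Benjamini-Hochberg method over all genes. These p-values measure the spread between days of 1 line each, not between cultures. Over the 7 days no member passed an adjusted p of 0.05, beside 5.72% of 20050 genes (1.91% higher and 3.82% lower). There were 2 members under an unadjusted p of 0.05, beside 5323 of the 20050 genes. They were Sec61a1 with a log2 difference of -0.24 ± 0.07 (SE; adjusted p = 0.078) and Srp9 with 0.19 ± 0.08 (adjusted p = 0.17). DESeq2 called no member either, beside 1065 genes higher and 1446 lower of 33800. Under an unadjusted p of 0.05 it had 3 members and 5172 genes. Its gene total includes low-count genes that edgeR's filter removed. Dis3l2 itself had -1.08 ± 0.30 (adjusted p = 0.060).

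Over d6 to d12 alone, Sec61a1 was lower in shDis3l2 by a log2 difference of -0.21 ± 0.06 (adjusted p = 0.033, lower on 4 of 4 days) and Sec61a2 higher by 0.20 ± 0.06 (adjusted p = 0.046, higher on 4 of 4 days). These were 2 of 10 members called, beside 38.3% of 17164 genes (19.6% higher and 18.7% lower; with library totals, which called the same count of members, 20.0% and 17.8%). Srp14 had 0.23 ± 0.09 and did not pass (adjusted p = 0.076), though it passed in 1 of the 4 fits that left out a day. The other 7 lay between -0.18 (Srprb) and 0.37 (Sec61g). Both calls were narrow. Leaving out d6, d8, d10 or d12 ended the Sec61a2 call each time (adjusted p 0.113 to 0.125) and the Sec61a1 call in 3 of 4 fits (adjusted p 0.036 to 0.13). DESeq2 gave adjusted p = 0.020 for Sec61a1 and 0.11 for Sec61a2, beside 9.46% of 30873 genes higher and 9.61% lower by that tool. These genes include low-count ones that get no adjusted p, so the DESeq2 shares are not comparable with those of edgeR. With near copies added, Sec61g was called too, at 0.26 ± 0.08 (adjusted p = 0.036), on a sum made mostly of Gm10177 reads. Gm10177 alone had 0.25 ± 0.08 by edgeR (adjusted p = 0.040) and 0.25 by DESeq2 (adjusted p = 0.056). The Sec61g entry alone was not called by edgeR (adjusted p = 0.26).

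Several lists of cell type markers differed between the lines over the same days, on which 19.6% of all genes were called higher and 18.7% lower. Of the 10 visceral endoderm-like markers 9 were lower in shDis3l2, and their summed level was 814 to 2489 CPM against 3610 to 8609 in shLacZ. Of the 10 mesenchyme-like markers 8 were higher and 1 was lower, with sums of 5972 to 24734 against 3681 to 8375 CPM. Of the 8 pluripotency markers 7 were lower. The sums of the neural-like list overlapped between the lines, at 78.9 to 191 CPM in shDis3l2 and 48.0 to 115 in shLacZ. Those of the early germ layer list overlapped too, at 197 to 441 CPM in shDis3l2 and 393 to 718 in shLacZ. All 10 markers of the mesenchyme-like list, and 9 or 10 of the visceral endoderm-like list, were above 3 reads in each of these libraries. Their part in the Sec61a1 and Sec61a2 differences was not tested.

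Whether the line difference itself changed from d0 to d4 to d6 to d12 was tested as an interaction. No member passed, beside 10.1% of 20050 genes (4.85% higher and 5.24% lower). Under an unadjusted p of 0.05 were 2 members, beside 5500 of the 20050 genes. Sec61b came nearest, with a change of -0.47 ± 0.13 (adjusted p = 0.053), and DESeq2 gave -0.46 with adjusted p = 0.045. With library totals it was -0.29 ± 0.15 (adjusted p = 0.28), and with no filter on low counts -0.43 (adjusted p = 0.15). Srprb had -0.41 ± 0.16 (adjusted p = 0.12).

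The step out of pluripotency, from d0 to d2, was tested over both lines together, so that the lines stand in for replicates. Of the 10 members, 7 were lower at d2 (31.0% of 20050 genes), 1 was higher (34.5%) and 2 did not pass, beside 65.5% of genes called in either direction. Sec61b fell by 2.13 on the log2 scale, with a standard error of 0.19 (adjusted p = 8.89e-06). Srp68 fell by 1.21, Srp9 by 0.91, Srprb by 0.85, Srp19 by 0.77, Sec61a1 by 0.62 and Sec61g by 1.38, with adjusted p between 1.24e-05 and 0.0059. Srp72 rose by 0.88 ± 0.13 (adjusted p = 0.00018). Srp14, at -0.40 (adjusted p = 0.051), and Sec61a2, at 0.19 (adjusted p = 0.25), did not pass.

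The d2 to d0 directions depended on scaling. The median of all genes tested moved by 0.12 with TMM, by 0.71 with library totals and by -0.21 with DESeq2. Relative to that median, Sec61b changed by -2.24, -2.22 and -2.03 under the 3 scalings and Srp72 by 0.77, 0.78 and 0.99. With library totals 4 members were called: Sec61b and Srp68 as lower (20.5% of genes), and Srp72 and Sec61a2 as higher (46.2%). Sec61a1 was then at -0.0017 and Srp14 at 0.18. DESeq2 called 8 lower and 1 higher, beside 19.1% in each direction of its 33800 genes. That total includes low-count genes that edgeR's filter removed, so this share is not comparable with those of edgeR.

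Gene length moved with the same step. Among protein-coding genes, the median log2 change was -1.28 for lengths from 1000 to under 1500 bases, the class of Sec61b and Srp14, and -0.48 from 1500 to under 3000 bases, the class of Srp68 and Sec61g. It was 0.04 from 3000 to under 5000 bases, the class of Srp19, Srprb and Sec61a2, and 0.43 from 5000 to under 7000 bases, the class of Srp9, Srp72 and Sec61a1. Sec61b, Srp68, Sec61g, Srp19 and Srprb lay below the median of their class, and Srp14, Srp72 and Sec61a2 above it. Srp9 and Sec61a1 lay below a class whose median was above 0. The part of length in these changes was not tested.

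From d2 to d12, 4 members were higher (25.6% of 20050 genes) and none was lower (22.8%), beside 48.4% of genes in either direction. The count of members lower was also 0 by DESeq2 (4 higher, beside 13.8% of its 33800 genes higher and 12.0% lower). With library totals it was 0 as well (3 higher, beside 25.0% and 21.6%). By edgeR with TMM, 4 of 10 members had an unadjusted p under 0.05, beside 11196 of 20050 genes. Sec61a1 rose by 0.94 ± 0.14, Srprb by 0.93 ± 0.20 and Srp68 by 0.89 ± 0.12, with adjusted p between 0.00027 and 0.0034. Sec61a2 rose by 0.40 ± 0.14 (adjusted p = 0.036). The calls of Sec61a1, Srprb and Srp68 held in all 4 fits that left out 1 of the 4 libraries, and that of Sec61a2 in 1 of 4. Srp72, which had risen at the earlier step, had -0.22 and Sec61b -0.27, neither past the threshold.

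**Figure D5:**
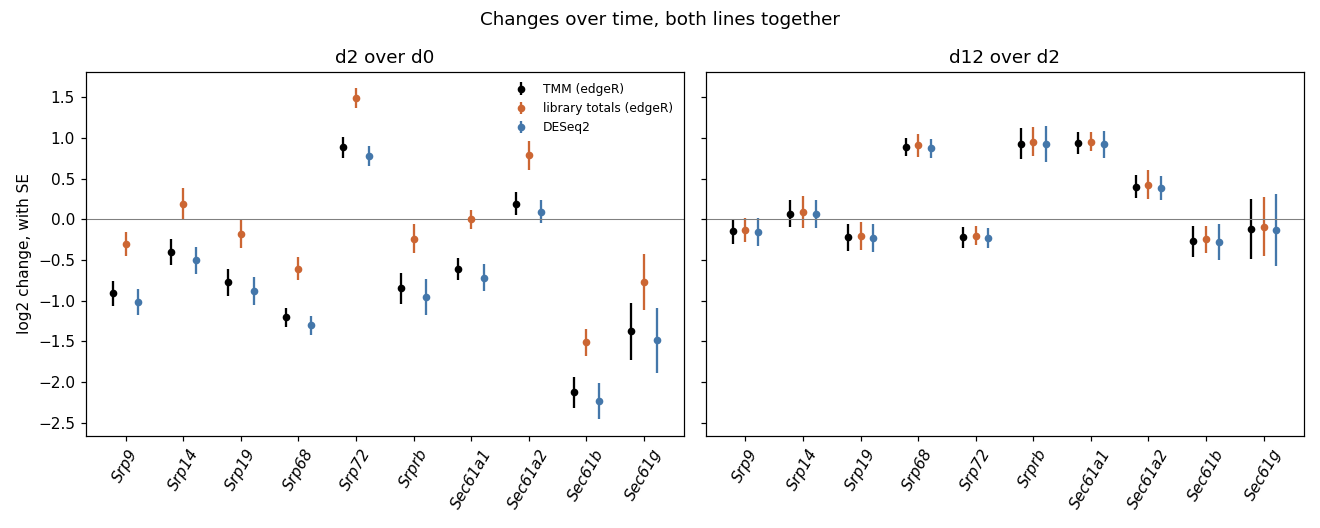
Log2 change of each member (vertical axis, bars are standard errors) from d0 to d2 on the left and from d2 to d12 on the right, both lines together, with edgeR and TMM in black, edgeR and library totals in orange and DESeq2 in blue. The scalings part over the first step and nearly coincide over the second.

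The members did not move as one. Over the 45 pairs of members, Pearson's r of log2(CPM + 1) across the 14 libraries had a median of 0.04 and ran from -0.92 (Sec61a2 and Sec61b) to 0.85 (Srprb and Sec61a1). Over the 12 EB libraries the median was 0.14, with a range from -0.66 (Srp19 and Sec61a1) to 0.86 (Srp68 and Sec61a1). Sec61a2 and Sec61b had r = -0.46 over these 12. The points share their libraries and the d0 pair weighs on them, so these values describe likeness only. Gm10177 had r = 0.94 with Sec61b and 0.87 with Sec61g over the 14 libraries, and 0.60 and 0.77 over the 12. Gm13736 had r = -0.19 with Srp9 over the 14 libraries and 0.56 over the 12. The protein-coding genes most like the mean profile of the 9 members with at least 10 CPM were Selenok (r = 0.94), Gbas (0.92), Dhrs1 (0.92), Itgb1bp1 (0.91) and Tm2d1 (0.91). Those most like Sec61a2 were Wdr11, Mapkap1 and Zfp251 (0.98 to 0.99). Over the 12 EB libraries other genes took these places: Cops9 (0.96), Fam114a2 (0.95), Sar1b, Mfap3 and Selenof (0.93 each) for the mean profile, and Plxna2, Tsc22d3 and Ror2 (0.96 each) for Sec61a2.

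The other genes of the pathway were described from lists of 54 measured genes. Over d6 to d12, 9 of 54 were higher in shDis3l2 and 10 were lower (19.6% and 18.7% of all genes), with a median log2 difference of 0.05 beside 0.02 over all genes. The remaining protein of the particle, the signal-binding Srp54, is encoded by related genes that may share reads. Their sequences were not compared here. Summed over the 3 entries in the tables (2 gene identifiers named Srp54a, and Srp54b), it stood at 31.7 CPM in shLacZ and 21.1 in shDis3l2 at d0, and at 94.2 and 135 CPM at d2. By library totals the fold of the sum was 0.666 (0.602 to 0.737) at d0 and 1.22 to 1.43 from d2 to d12. At d0 it was 0.793 by TMM and 0.873 by DESeq2 size factors. The entries may share reads and are not taken as separate results. They make up 3 of the 9 pathway genes counted as higher over d6 to d12 (0.40 to 0.46). The alpha subunit of the receptor, Srpr, was not called.

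Of the 14 partners of the translocon, 3 were higher over d6 to d12 and 2 were lower. They included Ssr3 of the translocon-associated protein complex (0.35 ± 0.09, adjusted p = 0.017) and Tram1, a membrane protein beside the channel (-0.30 ± 0.08, adjusted p = 0.019). Of 5 signal peptidase genes 2 were higher and 1 was lower, Spcs3 (-0.37 ± 0.08, adjusted p = 0.011). Of 12 oligosaccharyltransferase genes, whose products attach sugars to the entering chain, Tusc3 was higher (0.38 ± 0.09) and Rpn1 lower (-0.32 ± 0.06).

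Of 7 genes of SRP-independent insertion 3 were lower, with Asna1, the ATPase that carries tail-anchored proteins, at -0.87 ± 0.07 (adjusted p = 0.00047), Tmem208 at -0.53 ± 0.07 and Sgta at -0.29 ± 0.08. Of 10 genes of the ER membrane protein complex 3 were lower, with Emc6 at -0.58 ± 0.09 (adjusted p = 0.0032) and Emc8 at -0.40 ± 0.07. With library totals 1 gene of each of these lists, Ubl4a and Emc3, was called higher as well. Neither gene of the nascent chain-associated complex, Naca and Btf3, was called.

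From d0 to d2, 30 of the 54 pathway genes were lower and 9 higher (31.0% and 34.5% of all genes), with a median of -0.72 beside 0.12 over all genes. With library totals 17 were lower and 19 higher (20.5% and 46.2% of all genes). From d2 to d12, 20 were higher and 4 lower (25.6% and 22.8% of all genes), with a median of 0.30 beside -0.02. Oligosaccharyltransferase genes gave 7 of 12 higher over that step and none lower, led by Magt1 (1.73 ± 0.15), and translocon partners 6 of 14 higher and none lower, led by Tram2 (3.89 ± 0.23).

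Promoters of 300 bases around the start were found in RefSeq (GRCm38.p6) for 7 of the 10 members. On either strand, the letters CCAAT occurred in those of Srp9 and Sec61g, and in 37.4% of 32851 promoters. The letters TGACGTG, the core of the unfolded protein response element, occurred in none of the 7 and in 2.01% of all. Both forms of the ER stress response element were absent from the 7, and occurred in 0.119% and 0.0365% of all promoters. The median fold of the genes on the 8 chromosomes of the members differed from that of all genes by -0.06 to 0.09 on the log2 scale on any day.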

How the data were processed

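The authors aligned reads of polyadenylated RNA with Subread, counted them per gene with featureCounts on GRCm38, and deposited raw counts, a length per gene and CPM. The submitters' processing notes also name FastQC and limma. Whether counting used strand, and how reads with several matches were treated, is not given in the sources used here. The deposited CPM was the count plus 0.25, scaled to the total of the 16181 listed genes. Columns headed with another name than the label for the knockdown were matched to shDis3l2 through the study's supplement, which heads the same values by line and day.

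CPM were recomputed over library totals of all genes after adding 0.25 reads in proportion to depth. Each day paired the libraries of both lines and entered as a block, from the sampling day in the labels. Tests used edgeR 4.0.16 (quasi-likelihood, TMM, filterByExpr, Benjamini-Hochberg over all genes tested) in R 4.3.3. DESeq2 1.42.0, library totals, no filter, left-out days or libraries, and no day block were alternatives. Sums with near copies (blastn 2.17.0, at least 95% identity) and other gene lengths were added after the data were seen. Gene types and transcripts came from GENCODE M21. The scripts were tested on simulated data: of 200 genes changed among 20050, edgeR called 125 for the 7 days, with 8 others. For d6 to d12 it called 89, with 9 others. For the interaction it called 33, for d0 to d2 48 and for d2 to d12 62, with 2 others each time. DESeq2 called 132 for the 7 days, with 42 others, and 126 for d6 to d12, with 61 others. The planted changes were at least 2-fold in either direction, larger than every line difference of a member in these tests. Recovery of smaller changes was not tested, nor how recovery depends on the size of a change.

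The named genes were the 10 members, up to 3 genes per other list by size of change, 5 like the members' mean profile, 3 like Sec61a2, and Dis3l2. The members and lists were chosen with earlier results of these data known. The depth of 7178712 to 39888099 reads sets a floor of 3 reads at 0.0752 to 0.418 CPM. Amino acid sequences were not used here.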

Additional observations from a re-analysis of the deposited data

Results flagged for a closer look

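The interaction test of the change in line difference from d0 to d4 to d6 to d12 passed for Dis3l2 and 4 pathway genes, and for no member. Of the 54 pathway genes 0 were higher and 4 lower, beside 4.85% and 5.24% of all genes. With library totals 1 was lower. Dis3l2 changed by 1.61 ± 0.29 (adjusted p = 0.011, edgeR), its fold moving from 0.137 at d0 to 0.754 at d12. Emc6 changed by -0.89 ± 0.14 (adjusted p = 0.0083), and its folds were 1.08 to 1.12 up to d4 and 0.577 to 0.741 after it. These 2 calls held in all 7 fits that left out a day. Asna1 changed by -0.64 (adjusted p = 0.022, held in 4 of 7 such fits), Tmem208 by -0.57 (0.031, 2 of 7) and Sgta by -0.47 (0.044, 0 of 7). With library totals, Emc6 and Dis3l2 remained past the threshold and Asna1, Tmem208 and Sgta did not (adjusted p 0.10, 0.14 and 0.21). What these changes come from was not tested.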

How the results depend on the processing

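Over d6 to d12, 2 members were called by edgeR with TMM, 1 by DESeq2, 0 without the filter on low counts, and 0 to 1 when a day was left out. Over all genes, DESeq2 called 2920 higher and 2967 lower of 30873. Without the filter, 3601 of 30873 were higher and 3158 lower. When a day was left out, 1695 to 3440 genes were higher and 1641 to 3237 lower. Over the 7 days the count was 0, and 0 to 1 with a day left out, the 1 being Sec61a1 without d0. That fit called 841 genes higher and 1348 lower of 18881. For the change of the line difference the count of members was 0, and 1 by DESeq2 (Sec61b), beside 1338 genes higher and 1339 lower of 33800 by that tool. From d0 to d2 it was 8, and 4 with library totals, where Srp14 turned from -0.40 to 0.18. At 1.5-fold, 0 members passed at d0, and 1 with TMM or DESeq2 size factors (Sec61g). At d2 and d10 it was 1, and 0 with copies added. Among alternatives to single tests of members, 148 kept direction and side, 20 lost the call, 5 gained one and 1 reversed. The cause of these shifts was not tested. Without the day block edgeR called 0 of 16739 genes over the 7 days, with 627 at an unadjusted p under 0.05 and 0 members among them (Sec61a1 -0.23, Srp9 0.21). The ratio of Sec61a1 to Sec61b per length, as a median over the libraries, was 1.16. It was 0.916 with copies added and principal transcript lengths, which changed both settings at once. The ratio was not stable over the course. In shLacZ, Sec61a1 and Sec61b were at 31.3 and 122.1 CPM per kilobase at d0, and at 60.6 and 37.8 at d12. With 1 library per line and day, a difference between cultures and one between lines cannot be told apart.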
